A study of Homo sapiens with 4 samples.

Results

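The genes described here are splicing regulators: the SR proteins (symbols starting with SRSF), the heterogeneous nuclear ribonucleoproteins (symbols starting with HNRNP), the kinases CLK1, CLK2, CLK3, CLK4, SRPK1 and SRPK2, and the SR-related proteins TRA2A, TRA2B, SRRM1, SRRM2, RBM39 and SON. They were chosen by symbol among the probe sets that the platform annotation gives to a single gene. This rule took 43 of 19775 genes: 10 SRSF genes, 21 HNRNP genes and the 12 listed genes. They were read by 157 probe sets of 54675. Because the rule goes by letters, it also took HNRNPD-DT, a long non-coding RNA gene, and HNRNPA3P1, a transcribed pseudogene. A further 14 probe sets name a member together with other genes and were not used, which left SRSF2, SRSF9 and HNRNPH2 without a value.

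The cells were U937, an established human lymphoma line of monocytic character. They had received shikonin, a red naphthoquinone of gromwell roots, at 100 nM for 3 h (2 samples), or dimethyl sulfoxide (DMSO), the solvent control (2 samples), for which the labels give no time. Total RNA of each sample was hybridized to a short-oligonucleotide array, and the comparison asks which transcripts differed after shikonin. Nothing in the labels says that samples of a group came from separate cultures. The p-values therefore measure only the spread between these samples, and that spread may be technical.

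Before introns are removed, SR proteins bind exonic sequences through their RNA recognition motifs and recruit the splicing machinery through domains rich in arginine and serine, which mostly favours inclusion of the exon. Heterogeneous nuclear ribonucleoproteins bind nascent transcripts and often act against inclusion. SRPK kinases phosphorylate SR proteins in the cytoplasm, which lets them enter the nucleus, and CLK kinases phosphorylate them further in the nucleus, where SRRM2 and SON hold together the speckles that store them. Many of these genes produce, besides the messenger RNA for the protein, transcript forms with a premature stop that are degraded, through which several SR proteins limit their own level.

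The arrays were alike in overall brightness, with median signals of 61.0 and 63.7 after shikonin and 60.5 and 62.2 in DMSO. The ratio of 3' to 5' signal of ACTB was 1.16 and 1.18 after shikonin and 1.19 and 1.14 in DMSO. Of 12 monocytic and myeloid markers, 10 were above the filter on dim probe sets, and their summed signal was 35735 to 37990 after shikonin and 38214 to 39687 in DMSO. None of them was called, and CD14, a marker of mature monocytes, was below the filter on all arrays. Summed markers of T cells, B cells, red cells and epithelium lay between 20.6 and 317 on every array. In such bulk samples, fewer cells of a type and less RNA per cell cannot be told apart, and all arrays were scaled to one mean level, so a change is one against the other probe sets of the array.

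More of the splicing regulators were higher than lower after shikonin, and nearly all changes were small. Of the 41 genes with a tested probe set, 12 rose and 2 fell at an adjusted p under 0.05 in limma, each gene read by its brightest probe set. Changes are on the scale of log2(signal + 9.94), and the dimmest 40% of probe sets were not tested. The background over all 13554 genes was 5.05% called higher and 6.65% called lower, against 29.3% and 4.88% of the members. Bright genes are called more often: 33 of the 41 lay among the brightest 25% of genes, where 11 rose and 2 fell. Of all genes in that 25%, 10.7% were called higher and 8.91% lower. Many of the 33 lay near its top, such as TRA2B at percentile 98.6, and some near its lower edge, such as SRRM2 at 76.1. No closer match for brightness was made. The median log2 change of the members was 0.13, against 0.00 over all genes and 0.05 in the brightest 25%, and 31 of the 41 changes (75.6%) were positive, beside 50.5% of all genes and 62.5% of the brightest 25%. Both treated arrays lay above both controls in 24 members (58.5%) and below them in 7 (17.1%), beside 28.2% and 27.3% of all genes. Among the brightest 25% of genes these shares were 43.8% and 25.3%. Between arrays, the median absolute log2 difference of the members was 0.06 and 0.07 within groups and 0.16 to 0.19 between them. On the brightest probe sets, CLK2 was the one member of 41 that changed by at least 1.5-fold. Over all genes 1541 of 13554 did, and 99 of the 3389 in the brightest 25%. Called dimmer probe sets of SRSF1, SRSF4 and HNRNPL also changed by that much. SRSF12 and HNRNPLL were too dim to be tested.

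These counts depend on the error model and on single arrays. With quantile normalization, 9 members rose and 3 fell, and their median log2 change was 0.06, against 0.00 over all genes. In that fit 19 of the 41 members had an unadjusted p under 0.05, beside 3698 of 13555 genes. With a single variance prior in place of a trend of variance on signal, limma called 0 members in either direction (smallest adjusted p 0.178, 8 with an unadjusted p under 0.05), and 0 genes of the whole array (2417 with an unadjusted p under 0.05). Without shikonin 1, shikonin 2, DMSO 1 or DMSO 2, 3, 5, 8 and 7 members rose and 1, 2, 1 and 1 fell. CLK2, SRSF6, TRA2B and SRSF5 were called in all 4 of these fits. With no filter 6 members rose and 1 fell, and so they did with the mean of a gene's probe sets. With no filter, 24 of 43 members and 4102 of 19775 genes had an unadjusted p under 0.05. With the mean of a gene's probe sets, 15 of 41 members and 3414 of 13554 genes had one. Without probe sets ending in _x_at or _s_at, some of which read related transcripts, 31 members were tested, 4 rose and 0 fell. An unadjusted p under 0.05 was reached by 10 of the 31, beside 2885 of 10832 genes. Of the 14 called members 9 were left: 3 kept the call, 3 lost it and 3 changed sign. CLK2, SRSF5 and SRSF6 have only _s_at or _x_at probe sets, so their calls could not be checked in this way.

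**Figure D1:**
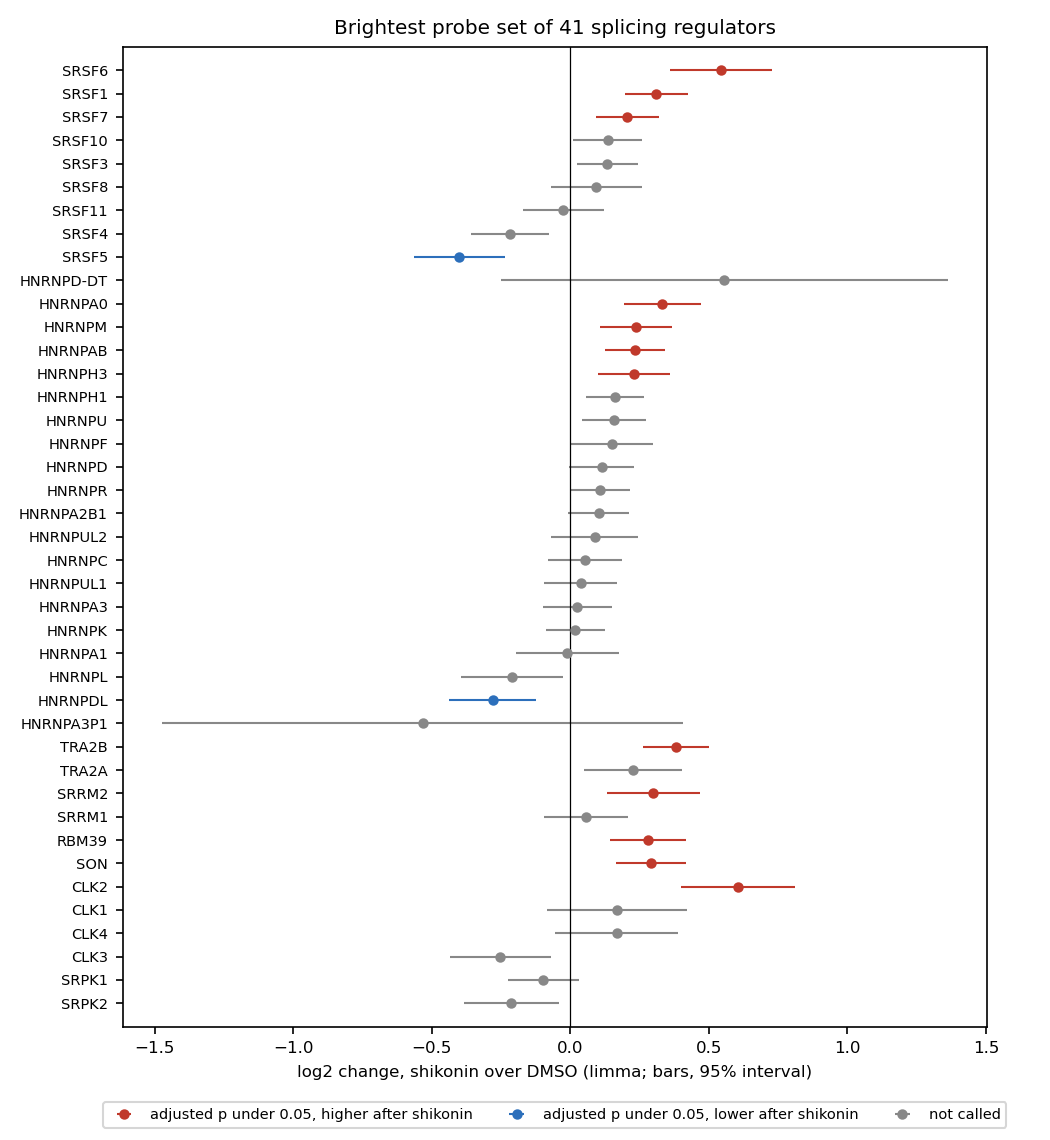
Log2 change of the 41 tested splicing regulators, shikonin over DMSO, by gene family (points, limma estimate for the brightest probe set; bars, 95% interval). The 12 members in red lie between 0.21 and 0.61, the 2 in blue at -0.28 and -0.40, and the widest bars are those of the dim HNRNPA3P1 and HNRNPD-DT.

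Promoter sequences are shown for CLK2, TRA2B, SRSF5 and SRSF6, the 4 genes that were called in every fit leaving out 1 array, to set beside the direction of their change. Each is the 250 bases before the start of transcription in RefSeq (GRCh38.p14), written 5′ to 3′ on the gene's own strand. CLK2 lies at chr1:155273505-155273754 (minus strand), TRA2B at chr3:185938015-185938264 (minus), SRSF5 at chr14:69766892-69767141 (plus) and SRSF6 at chr20:43457646-43457895 (plus). Capitals mark matches, on either strand, of TGACNNNGC (the core of the antioxidant response element) or CCGGAAG (an ETS core), and no match overlaps another.
CLK2: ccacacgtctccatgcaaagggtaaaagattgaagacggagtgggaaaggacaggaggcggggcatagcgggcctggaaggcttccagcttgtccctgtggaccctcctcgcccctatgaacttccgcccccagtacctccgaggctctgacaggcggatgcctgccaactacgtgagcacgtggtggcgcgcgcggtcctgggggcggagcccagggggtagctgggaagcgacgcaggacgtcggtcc
TRA2B: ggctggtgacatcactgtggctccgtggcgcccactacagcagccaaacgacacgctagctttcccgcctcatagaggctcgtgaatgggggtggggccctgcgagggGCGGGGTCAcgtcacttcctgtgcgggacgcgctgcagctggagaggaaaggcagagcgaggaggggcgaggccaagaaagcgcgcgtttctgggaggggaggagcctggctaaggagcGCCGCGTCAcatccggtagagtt
SRSF5: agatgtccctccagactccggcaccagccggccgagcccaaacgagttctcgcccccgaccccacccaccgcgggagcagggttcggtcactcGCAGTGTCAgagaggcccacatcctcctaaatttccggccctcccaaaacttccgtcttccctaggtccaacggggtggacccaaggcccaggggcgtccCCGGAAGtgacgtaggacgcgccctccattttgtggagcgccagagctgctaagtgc
SRSF6: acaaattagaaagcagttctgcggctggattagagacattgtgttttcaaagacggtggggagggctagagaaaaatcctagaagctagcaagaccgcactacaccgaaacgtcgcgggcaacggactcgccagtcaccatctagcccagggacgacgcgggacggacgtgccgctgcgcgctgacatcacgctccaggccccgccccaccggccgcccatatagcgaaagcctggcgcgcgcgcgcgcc

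TRA2B held TGACNNNGC at 2 places and SRSF5 at 1, beside its CCGGAAG. CLK2 and SRSF6 had no match of these or of GAANNTTC, the paired heat shock element units, or TGACGTCA, the cyclic AMP response element. All motifs were searched on both strands. Over windows from 250 bases before to 50 after each start, TGACNNNGC was in 16.7% of 60 windows of 39 members and in 13.3% of all promoter windows. CCGGAAG was in 6 of the 60 and in 10.3% of all, and TGACGTCA in 0 of the 60 and 1.85% of all. GAANNTTC was in 6.67% of the members' windows and 6.77% of all windows. Of 14 windows of members that rose, TGACNNNGC was in 3, and GAANNTTC, CCGGAAG and TGACGTCA were in 0. Whether these 14 windows differ from all windows was not tested. A match is a run of letters and not a bound site, and the lack of one says nothing about the factor.

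Among the SR proteins, 3 of 9 tested genes rose and 1 fell. SRSF6, which binds exonic enhancers, had signals of 3022 and 3302 after shikonin, against 2035 and 2303 in DMSO. Both treated arrays lay above both controls, and the change was 1.46-fold (log2 change 0.54, SE 0.082, adjusted p = 0.00433). SRSF1, an SR protein that also acts in transcript decay and translation, had signals of 15627 and 15006 after shikonin and of 12559 and 12137 in DMSO on its brightest probe set (log2 change 0.31, adjusted p = 0.00635). SRSF7, which couples splicing to export, reached 17664 and 17002 after shikonin, against 14658 and 15393 in DMSO (0.21, adjusted p = 0.0374). The groups did not overlap on the brightest probe set of SRSF1 or of SRSF7. The other tested probe sets of SRSF7 did not pass: 201129_at was at 0.20, 211439_at at 0.02 and 213649_at at -0.15. On 213649_at both treated arrays lay below both controls.

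SRSF5 went the other way. This SR protein, known to be induced by insulin in rat, had signals of 6102 and 6230 after shikonin and 7561 and 8770 in DMSO, with both treated arrays below both controls (log2 change -0.40, SE 0.073, adjusted p = 0.0106). A second probe set of SRSF5, 203380_x_at, fell by a similar amount (-0.41, adjusted p = 0.0045), and the dimmest, 210077_s_at, did not pass (-0.18). The 5 SR genes that did not pass were SRSF3 (0.13), SRSF4 (-0.22), SRSF8 (0.09), SRSF10 (0.13) and SRSF11 (-0.03), and their adjusted p ran from 0.0608 to 0.861. With the mean of all its probe sets SRSF1 was at -0.01. Single arrays mattered for SRSF1, which lost the call without shikonin 1 (adjusted p 0.0532), and for SRSF7, which lost it without shikonin 1 (0.208), shikonin 2 (0.101) or DMSO 1 (0.149).

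**Figure D2:**
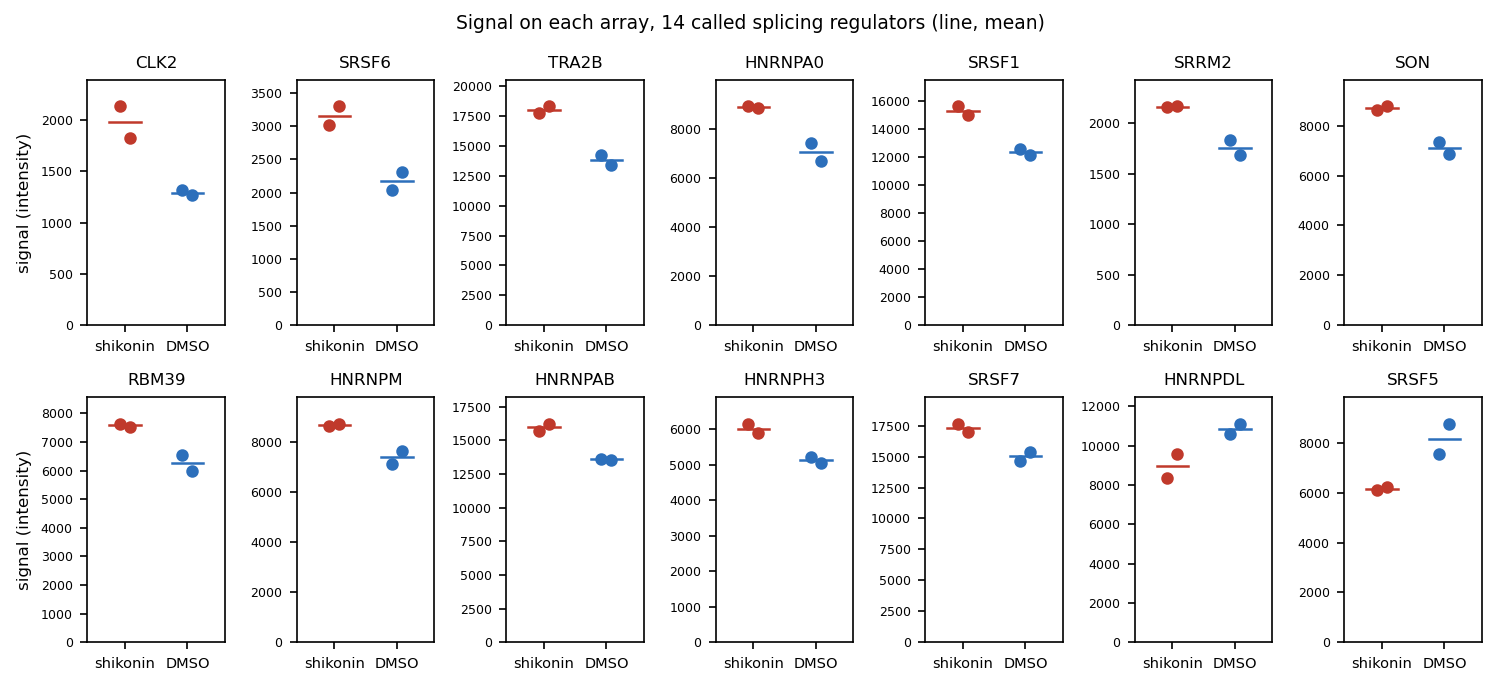
Signal intensity on each array of the 14 members that passed the test (points, arrays; lines, group means; shikonin left, DMSO right; each axis starts at 0). The 14 genes were chosen by the test on these same arrays. In none of them do the groups overlap, and shikonin is the lower group in the last panels only, HNRNPDL and SRSF5.

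Of the 6 SR-related proteins, 4 rose and 0 fell (each of the 6 changes was positive). Each lay among the brightest 25% of genes, of which 10.7% were called higher, 8.91% lower, and 62.5% had positive changes. TRA2B, which activates exons with GAA-rich enhancers, had signals of 17735 and 18332 after shikonin, against 14271 and 13406 in DMSO, without overlap. The change was 1.30-fold (log2 change 0.38, SE 0.052, adjusted p = 0.00284, the smallest among the members' brightest probe sets), and 2 of its 3 other tested probe sets rose too. Of these, 200892_s_at changed by 0.38 and 210180_s_at by 0.55 on the log2 scale. The call of 210180_s_at was lost without shikonin 2 (0.0623) or DMSO 1 (0.0667).

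SRRM2, a scaffold protein of nuclear speckles, had signals of 2156 and 2167 after shikonin and 1832 and 1681 in DMSO (log2 change 0.30, adjusted p = 0.0379). SON, the other scaffold of the speckles, had 8614 and 8777 after shikonin against 7335 and 6871 in DMSO (0.29, adjusted p = 0.0136). RBM39, a U2AF-related splicing factor, had 7642 and 7524 after shikonin against 6527 and 5976 in DMSO (0.28, adjusted p = 0.0222). In all 3 genes the treated arrays were above the controls. None of the 3 other probe sets of SRRM2, the 4 of SON or the 3 of RBM39 passed. Without _s_at and _x_at probe sets, SRRM2 was at -0.31 and SON at -0.00316. The calls were lost without shikonin 1, shikonin 2 or DMSO 2, with adjusted p of 0.115, 0.119 and 0.157 for SRRM2, of 0.0515, 0.0702 and 0.0584 for SON, and of 0.0965, 0.0715 and 0.0972 for RBM39. TRA2A, the relative of TRA2B, did not pass (0.23, adjusted p = 0.109), although its groups did not overlap, and neither did SRRM1 (0.06, adjusted p = 0.672).

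Of 20 tested HNRNP genes, 4 rose and 1 fell, and the median log2 change was 0.11. HNRNPA0, which binds AU-rich elements of messenger RNA, had signals of 8911 and 8824 after shikonin, against 7411 and 6694 in DMSO (log2 change 0.33, adjusted p = 0.0119). Its dimmer probe sets did not pass: 201055_s_at was at -0.16, with 1129 and 1124 after shikonin against 1147 and 1387 in DMSO, and 229083_at at 0.02. HNRNPM had 8620 and 8717 after shikonin, against 7086 and 7642 in DMSO (0.24, adjusted p = 0.0346). HNRNPM binds GU-rich RNA, and a second probe set of it, 1555844_s_at, rose by 0.28. HNRNPAB, a single-strand nucleic acid binding protein, had 15710 and 16245 after shikonin against 13609 and 13567 in DMSO (0.23, adjusted p = 0.0187). HNRNPH3, of the family that binds G-runs, had 6168 and 5887 after shikonin against 5232 and 5051 in DMSO (0.23, adjusted p = 0.0403), and 2 of its other probe sets rose by 0.32 and 0.44. On the brightest probe set of each of these 4 genes both treated arrays lay above both controls.

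HNRNPDL, a relative of the AU-rich element binding protein HNRNPD, was the HNRNP gene that fell. Its signals were 8354 and 9562 after shikonin and 10579 and 11124 in DMSO, without overlap (log2 change -0.28, adjusted p = 0.0382). Its 5 other probe sets did not pass and ran in both directions, among them 1554678_s_at at -0.18 and 212454_x_at at 0.20. The 3 brightest probe sets of HNRNPDL were all below 0. The mean over all 6 was 0.0700, which includes the dim 214379_at at 0.81 (42.7 and 69.4 after shikonin, 19.9 and 35.6 in DMSO). The call of HNRNPA0 was lost without shikonin 1 (0.0521). HNRNPM lost it without shikonin 1, shikonin 2 or DMSO 1 (0.115, 0.137 and 0.15), and HNRNPDL without shikonin 1, DMSO 1 or DMSO 2 (0.211, 0.0509 and 0.118). HNRNPAB and HNRNPH3 lost it without any 1 of the 4 arrays (shikonin 1, shikonin 2, DMSO 1 and DMSO 2: 0.0688, 0.13, 0.0544 and 0.0564 for HNRNPAB, and 0.198, 0.0859, 0.0711 and 0.14 for HNRNPH3). For 1555844_s_at the call went without shikonin 1 or shikonin 2 (0.0558 and 0.0637), for 207127_s_at of HNRNPH3 without shikonin 2 or DMSO 2 (0.107 and 0.0746) and for its 210110_x_at without shikonin 1 (0.0594).

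The 15 HNRNP genes that did not pass include several of the classical members. HNRNPH1, which binds G-runs, had 26363 and 27470 after shikonin, against 23966 and 24200 in DMSO (0.16, adjusted p = 0.0652). HNRNPK, a poly(C) binding protein, had 17489 and 17347 after shikonin against 16970 and 17454 in DMSO (0.02, adjusted p = 0.871), and its groups overlapped. HNRNPA2B1 (0.10), HNRNPC (0.05) and HNRNPU (0.16) did not pass either. HNRNPA1, the classical splicing repressor, was at -0.01 with a 95% interval of -0.20 to 0.17. Signals are not compared between genes, since probe sets differ in brightness for the same amount of RNA.

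Of the 6 kinases, CLK2 rose and no other passed, beside 5.05% called higher and 6.65% called lower of all genes. CLK2, which phosphorylates SR proteins in the nucleus, had signals of 2136 and 1823 after shikonin, against 1318 and 1271 in DMSO. The treated arrays lay above both controls, and the change was 1.52-fold (log2 change 0.61, SE 0.091, adjusted p = 0.00429). CLK2 had 1 tested probe set. Its relative CLK1 had 1638 and 1285 after shikonin and 1266 and 1313 in DMSO, so the groups overlapped (0.17, adjusted p = 0.408). CLK4 was at 0.17 (adjusted p = 0.344) and CLK3 at -0.25 (adjusted p = 0.0876, 1198 and 1269 after shikonin, 1433 and 1510 in DMSO). The 95% interval of CLK1 was -0.08 to 0.42, that of CLK4 -0.05 to 0.39 and that of CLK3 -0.43 to -0.07. Whether CLK2 changed more than its relatives was not tested.

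The cytoplasmic kinases did not pass. SRPK1 had signals of 8168 and 7589 after shikonin and 8460 and 8383 in DMSO (log2 change -0.10, adjusted p = 0.342). SRPK2 had 1336 and 1313 after shikonin, against 1515 and 1559 in DMSO (-0.21, adjusted p = 0.119). All 5 tested probe sets of SRPK2 were below 0, from -0.40 to -0.21, and the treated arrays lay below the controls on each, while none passed.

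Many of these genes were read by several probe sets, which can detect different transcript forms. Of 146 tested probe sets of the members, 24 rose and 5 fell, beside 3.94% called higher and 6.01% called lower of all single-gene probe sets. The 35 members with several tested probe sets included 21 whose probe sets had changes of both signs. HNRNPL, SRSF3, SRSF4 and SRSF10 had a call on a dimmer probe set and none on the brightest, which brings the members with any called probe set to 18 of 41. Over all genes this share was 14.8%. It was 20.9% of the genes with several tested probe sets, beside 16 of the 35 such members. No share among bright genes, which are called more often, was taken for these probe set counts. The shares of genes with any call were also not matched for the number of probe sets per gene, and more probe sets give more occasions for a call. For SRSF3, whose SR protein is the smallest of the family, 208673_s_at rose by 0.25 (adjusted p = 0.0395), and for SRSF10, a splicing repressor when dephosphorylated, 210178_x_at rose by 0.26 (adjusted p = 0.0281). Leaving out any 1 array took away the call of 208673_s_at (0.0526, 0.214, 0.111 and 0.0858 without shikonin 1, shikonin 2, DMSO 1 and DMSO 2) and of 210178_x_at (0.0991, 0.116, 0.0739 and 0.0887). The position of these probe sets on the transcripts was not analysed here.

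**Figure D3:**
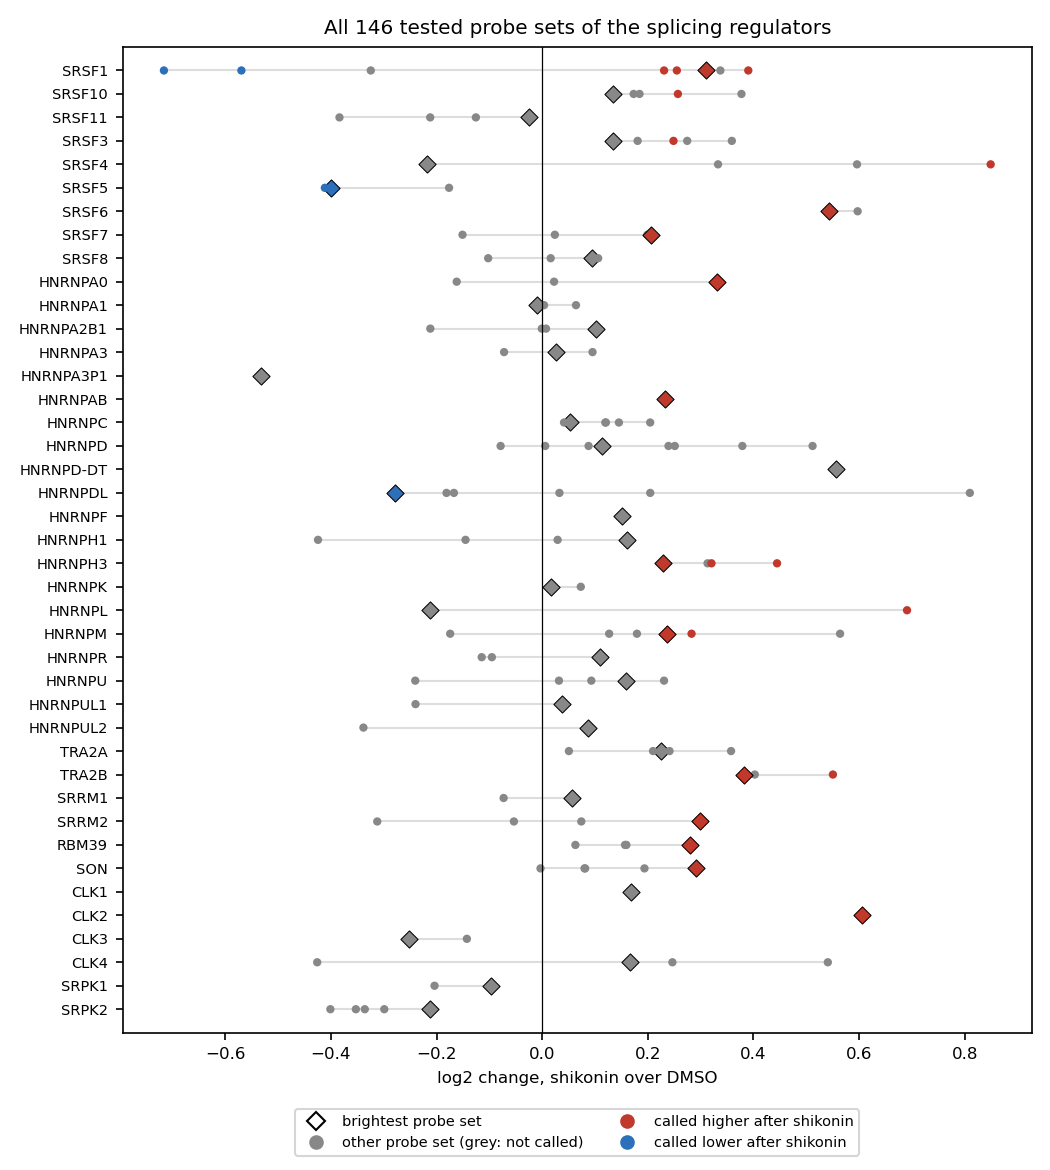
Log2 change, shikonin over DMSO, of all 146 tested probe sets of the 41 members, by gene (diamonds, the brightest probe set; circles, other probe sets; red and blue, called higher and lower). SRSF1 is the one gene with red and blue probe sets, and HNRNPL and SRSF4 have a red circle beside a brightest probe set below 0.

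SRSF1 was called in both directions. Of its 8 tested probe sets, 4 rose, namely the brightest, 201742_x_at (0.23), 208863_s_at (0.26) and 227164_at (0.39), and 2 fell. One that fell, 226419_s_at, had signals of 706 and 680 after shikonin, against 1014 and 1052 in DMSO (log2 change -0.57, adjusted p = 0.00581). The other, 239384_at, had 197 and 210 after shikonin against 377 and 307 in DMSO (-0.72, adjusted p = 0.0301). Treated arrays were below controls on both. Without shikonin 1, shikonin 2 or DMSO 1 the call of 239384_at was lost (0.093, 0.0608 and 0.162), and without shikonin 1, shikonin 2 or DMSO 2 that of 227164_at (0.0965, 0.0959 and 0.113). The calls of 201742_x_at and 208863_s_at were lost without any 1 array (adjusted p 0.0519 to 0.205 and 0.058 to 0.149).

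For SRSF4, a large SR protein, the dimmer probe set 239512_at had signals of 675 and 598 after shikonin and 348 and 348 in DMSO (log2 change 0.85, adjusted p = 0.00346). The brightest probe set of SRSF4 had 5028 and 4876 after shikonin against 5531 and 6004 in DMSO (-0.22, adjusted p = 0.0608). HNRNPL, which binds CA repeats, had 1177 and 1238 after shikonin on 202072_at, against 714 and 775 in DMSO (0.69, adjusted p = 0.00235). On its brightest probe set, 35201_at, it had 1290 and 1272 after shikonin and 1420 and 1552 in DMSO (-0.21, adjusted p = 0.148). Arrays of the 2 groups overlapped on none of these 4 probe sets, and within each gene the dimmer one was higher while the brighter one was lower.

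Whether 2 probe sets of a gene changed unequally was tested as the log2 ratio of each dimmer probe set to the brightest one of its gene. Of 12827 such ratios over the array, 21 were called (0.164%) in 18 genes, 10 of them higher (0.078%) and 11 lower (0.0858%), and 3 of the members' 105 (2.86%) were among them. No share among ratios of bright genes was taken. The ratio of 202072_at to 35201_at of HNRNPL changed by 0.90 (SE 0.115, adjusted p = 0.0238): on the log2 scale it was -0.13 and -0.04 after shikonin and -0.98 and -0.99 in DMSO. For SRSF4 the ratio of 239512_at changed by 1.07 (SE 0.150, adjusted p = 0.0357), with -2.88 and -3.01 after shikonin and -3.95 and -4.07 in DMSO. For SRSF1 the ratio of 226419_s_at changed by -0.88 (SE 0.120, adjusted p = 0.0308), with -4.45 and -4.44 after shikonin and -3.62 and -3.52 in DMSO. That each ratio differs more between the groups than between arrays of a group follows from its call. Without DMSO 2 the SRSF1 and SRSF4 ratios lost their calls (0.0585 and 0.0536), while the HNRNPL ratio was called in all 4 fits. The SRSF4 ratio also lost its call with no filter (0.0588), and the SRSF1 ratio with quantile normalization (0.0566). With a single variance prior 0 ratios of members were called (smallest adjusted p 0.329, 10 with an unadjusted p under 0.05).

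**Figure D4:**
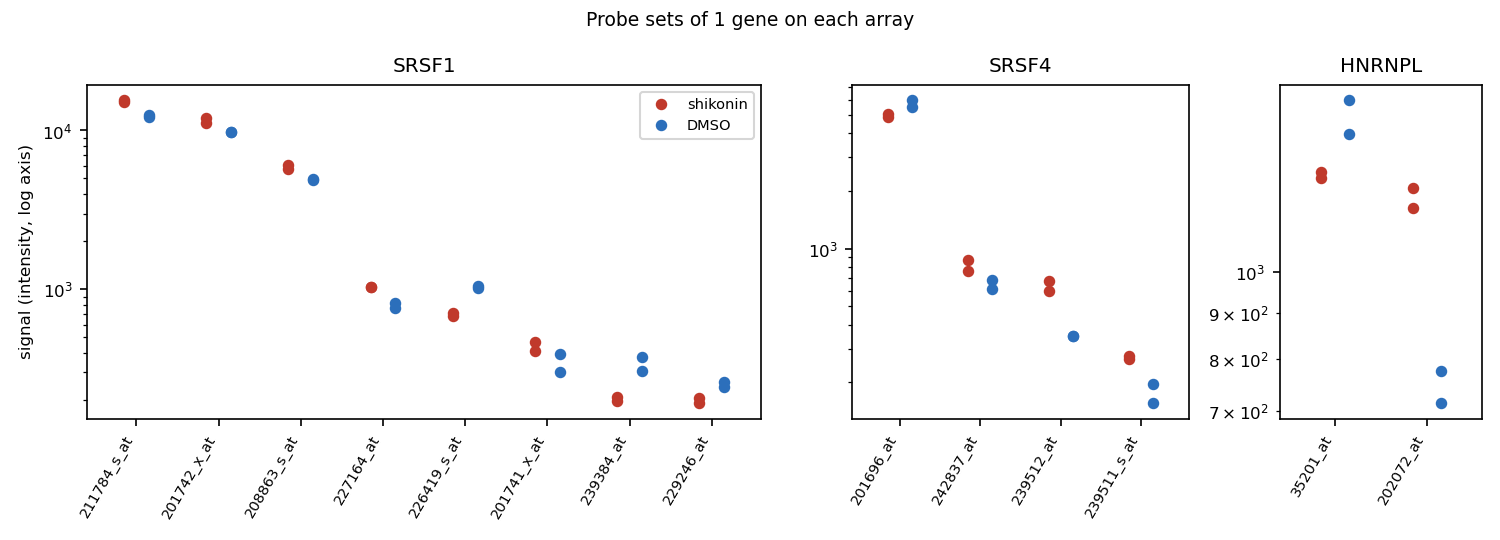
Signal intensity on each array (log axis) of every tested probe set of SRSF1, SRSF4 and HNRNPL, the 3 members with a called ratio, from the brightest to the dimmest, with shikonin arrays left of DMSO arrays. Probe sets 202072_at of HNRNPL and 239512_at of SRSF4 are higher after shikonin (1177 and 1238, and 675 and 598) and 226419_s_at of SRSF1 is lower (706 and 680).

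The wider splicing machinery was read through 6 lists of 139 genes in all. Of 124 tested, 12 rose and 7 fell, beside the 5.05% and 6.65% of all genes, and the median log2 change was 0.10. Of these genes, 85 lay among the brightest 25%, where 9 rose and 4 fell, beside the 10.7% and 8.91% of all genes in that 25%. The list of PRPF proteins, spliceosomal helicases and the NTC complex had 6 of 26 tested genes that rose and 0 that fell. Among them PRPF4, a protein of the U4/U6 particle, had signals of 2966 and 2922 after shikonin, against 2281 and 2214 in DMSO (0.39, adjusted p = 0.00701), PRPF31, of the same particle, changed by 0.34 and BCAS2, an NTC subunit, by 0.30. Of 14 SF1, SF3 and U2AF genes, which recognise the branch site and the 3′ splice site, SF3B4 (0.31) and SF3A2 (0.33) rose and none fell. Of 25 proteins of the U snRNPs, SNRNP25 rose (0.32), and LSM8 (-0.27) and SNRNP48 (-0.37) fell.

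Among 39 other regulators of alternative splicing, 3 rose (7.69%) and 4 fell (10.3%). Over all genes these shares were 5.05% and 6.65%. They were 10.7% and 8.91% in the brightest 25%, where 26 of the 39 lay. LUC7L, a U1-associated factor, had signals of 1783 and 1663 after shikonin, against 1238 and 1043 in DMSO (0.60, adjusted p = 0.00653). RBM25, a U1-associated regulator, rose by 0.39. SFPQ, a paraspeckle protein, rose by 0.21, while a dimmer probe set of it fell and its gene value was -0.20 without _s_at and _x_at probe sets. MBNL2, a muscleblind-like regulator, had 583 and 501 after shikonin, against 1031 and 968 in DMSO (-0.87, adjusted p = 0.00175). This was the largest change in size among the brightest probe sets of the 6 lists. Another MBNL2 probe set fell too (-0.96), while those at -0.43 and 1.22 did not pass. NKTR, a cyclophilin with an arginine-serine domain, fell by 0.48, and QKI, a STAR-family RNA-binding protein, by 0.32. Of 10 other kinases and import factors of SR proteins, DYRK1A, a kinase of the nucleus, fell (-0.29), and of 10 tested genes of the exon junction complex and nonsense-mediated decay none passed on the brightest probe set (RNPS1 at 0.15, adjusted p = 0.109). In all, 13 genes of the 6 lists had a call on a dimmer probe set only, a count for which no share over all genes was taken. One of the 13, named after its values were seen, was RBM8A, a core protein of the exon junction complex. Its brightest probe set was at 0.09, and 3 of its 5 dimmer ones rose by 0.35, 0.37 and 0.37. Of these, 214113_s_at was called in all 4 fits that leave out 1 array. The 213852_at call was lost without shikonin 1, DMSO 1 or DMSO 2 (0.133, 0.0544 and 0.0649), and the 217857_s_at call without any 1 array (0.0705 to 0.149). LSM8, SNRNP48, SF3A2 and SFPQ lost their calls without any 1 array (adjusted p from 0.0636 to 0.194). BCAS2 and SF3B4 lost them without shikonin 1 or DMSO 2 (0.143 and 0.101, and 0.0975 and 0.0897). SNRNP25 lost it without shikonin 2 or DMSO 1 (0.0893 and 0.074), PRPF31 and QKI without shikonin 1 (0.0724 and 0.052), and DYRK1A without shikonin 1, shikonin 2 or DMSO 1 (0.064, 0.0677 and 0.0571).

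**Figure D5:**
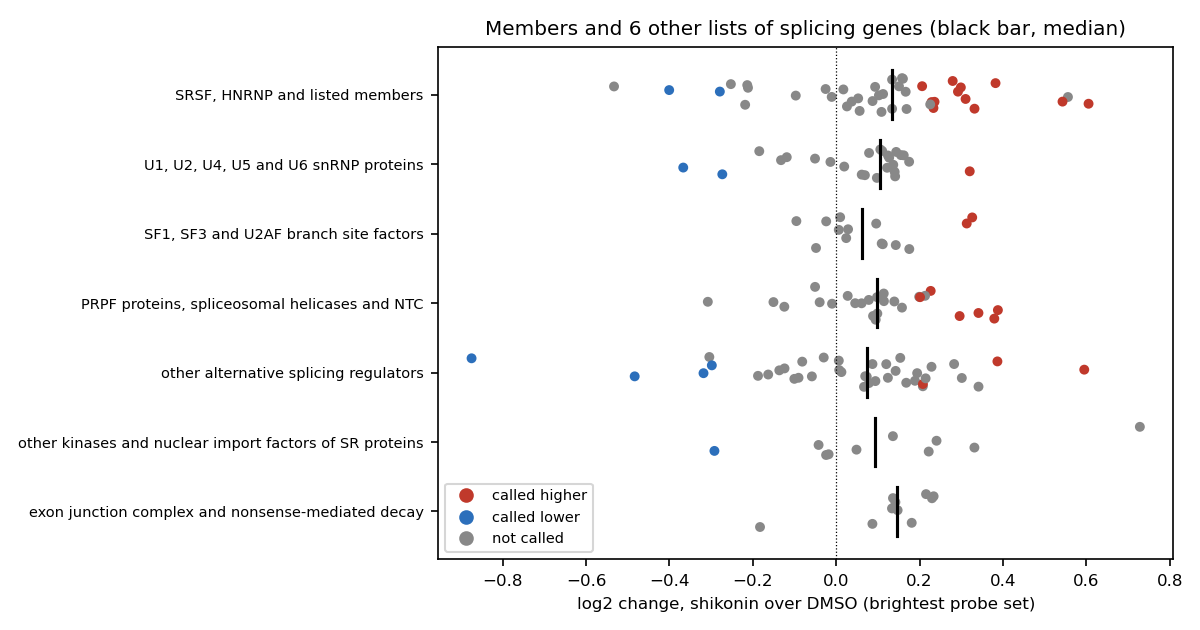
Log2 change, shikonin over DMSO, of the 41 members (top row) and the 124 tested genes of the 6 lists (points, brightest probe set of each gene; black bars, medians; red and blue, called higher and lower). The medians of the lists lie between 0.06 and 0.14, beside 0.13 for the members.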

How the data were processed

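Total RNA of 4 U937 samples was labelled with biotin after 3'-biased amplification, per the labels' protocols, and grouped by the treatment in the labels. The authors' deposited values are linear intensity, 1 per probe set, and the summarising software is not given in these sources. With 2% trimmed at each end, the mean was 500.1 on all arrays, so they had been scaled to one level.

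Genes were named from the platform annotation (41097 probe sets with 1 symbol, 1801 with several, 11777 with none), and no value came from a probe set with several symbols. All 43 members matched the RefSeq table. Intensities were taken as log2(signal + 9.94), the 20th percentile, which understates changes of dim genes. Leaving out 62 controls and the dimmest 40% by mean kept 32768 probe sets. The log2 medians of the arrays differed by at most 0.066. Further normalization was planned only above 0.1. limma 3.58.1 in R 4.3.3 (lmFit, eBayes with trend, two-sided) was used with p-values adjusted by Benjamini-Hochberg over these probe sets and a threshold of 0.05, on 2 residual and 7.1 prior degrees of freedom. The ratio test was adjusted over all ratios. The scripts' tests were checked on simulated data. An exact permutation test with 2 arrays against 2 cannot give a p below 0.333. The small number of arrays limits precision.

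The genes, lists and alternatives were chosen with earlier results of these data known. Any member could be named, and of each list of other splicing genes up to 3 called genes in each direction with the smallest p (1 where none was called). Alternatives were other pseudocounts, filters, normalization, variance prior, replicate block, probe set choice and leaving out each array.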

Additional observations from a re-analysis of the deposited data

How the results depend on the processing

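Pseudocounts of 1 or the 40th percentile kept all 14 calls of members, as did leaving out the lowest 60%. With no filter 6 members rose and 1 fell (6 and 4 on the lists of other splicing genes, 13 and 3 of the members' probe sets, and 350 genes of the whole array rose). With the lowest 60% left out, 19 list genes rose, and 71 ratios were called, 5 of them members'. Quantile normalization called 8 member probe sets lower and turned SRRM1 (-0.0294). A single variance prior left 0 calls in every count. Deviations of same-numbered arrays from their group means correlated at 0.022 over probe sets. With 2 arrays in each group this cannot decide whether the samples were paired. With the replicate block, 1234 genes rose, 28 list genes rose, 37 member probe sets rose and 10 fell, and 166 ratios were called, 5 of them members'. With the mean of each gene's probe sets, 6 members rose and 1 fell, 1 list gene fell, and HNRNPDL (0.0700), HNRNPL (0.24), SFPQ (-0.00864), SRRM1 (-0.00838), SRSF1 (-0.0108) and SRSF4 (0.39) turned. Without _x_at and _s_at probe sets, which tested 31 members, 4 rose and 0 fell (10 had an unadjusted p under 0.05), 3 list genes fell, and HNRNPDL (0.0327), SFPQ (-0.20), SON (-0.00316) and SRRM2 (-0.31) turned, each being read by another probe set. Leaving out 1 array gave 295 to 456 genes of the array called higher and 594 to 671 lower, 3 to 8 and 1 to 2 members, 4 to 7 and 3 to 4 list genes, 8 to 16 and 3 to 5 member probe sets, and 27 to 70 ratios, 1 to 5 of them members'. CLK1 turned without shikonin 1 (range over the 4 fits -0.00522 to 0.343) and SRRM1 without DMSO 2 (-0.0279 to 0.140). The cause of these shifts was not tested, apart from the change of probe set.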
